A study of Mus musculus with 7 samples.

Results

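The neurotrophin ligands and receptors described here were Bdnf, Ntf3, Ntrk2, Ntrk3, Ngfr and Sort1, 6 of the 46333 genes with counts, chosen by name and not by their values. Neurotrophins are secreted proteins that neurons and other brain cells make as larger precursors. Mature BDNF binds TrkB (Ntrk2) and mature NT-3 (Ntf3) binds TrkC (Ntrk3), both receptor tyrosine kinases that drive survival, dendrite growth and synaptic strengthening. The uncut precursors bind p75 (Ngfr), a death-domain receptor, together with sortilin (Sort1), a sorting receptor that also carries pro-BDNF inside the cell. In the brain, Bdnf is made mostly by excitatory neurons and is switched on by their activity, and TrkB is also abundant on astrocytes as a truncated form without the kinase.

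RNA was sequenced from neurons of adult female il4ra fl/fl mice with (cre+, SynCre + IL-4R fl/fl in the labels, 3 libraries) or without (cre-, SynCre - IL-4R fl/fl, 4 libraries) the Syn cre (Syn1-cre) transgene, to ask what neuronal loss of the interleukin-4 receptor does to transcripts. All 7 mice carried the floxed alleles, so the cre- mice control for those but not for the transgene. Syn cre is driven by the synapsin 1 promoter and is active in neurons, not in the other cells an isolate can hold. Whole brains were dissociated and antibody-bound microglia, oligodendrocytes and astrocytes were removed by magnetic sorting. The study names no antibody against endothelial or mural cells for this step. It checked the isolates by flow cytometry, with an endothelial marker among the stains, and reported a high neuronal purity. No other agent was given, and the replicates are littermates per the study. Libraries held 68213223 to 94376841 counts.

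Il4ra itself stood at 24.4 to 29.5 CPM (read counts scaled to library size with edgeR's TMM factors) in cre+ and 20.03 to 29.6 CPM in cre- (log2 fold change 0.21 ± 0.15 SE, edgeR adjusted p = 0.487). Gene counts cannot check the deletion of a few exons. Markers of neurons were present in all libraries but differed between genotypes. The mean log2 CPM of 16 pan-neuronal markers was 5.99, 6.90 and 7.07 for cre+ and 7.88, 7.33, 7.46 and 7.08 for cre- (values here and below in replicate order), without overlap. Their summed level ran from 1531 to 3023 CPM in cre+ and from 2934 to 4932 CPM in cre-, with overlap. The 15 endothelial markers summed to 15290 to 22330 CPM in cre+ and 10300 to 14180 CPM in cre-, without overlap and the other way round. Astrocyte markers (14) summed to 738.7 to 1086 CPM and 484.2 to 768.3 CPM. No marker of these 3 lists was at 0 in any library. These sums are not shares of cells, and how they relate to the purity the study reported was not tested. Cre+ replicate 1 had the lowest and cre- replicate 1 the highest neuronal marker level, so results that rest on them are also given without both. In such bulk samples, fewer cells of a type and less RNA per cell cannot be told apart.

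Bdnf (ENSMUSG00000048482, chr2, 109505045 to 109557352, plus strand, GRCm39) had a lower level in the cre+ libraries, which also held less of the neuronal markers. Its level was 2.19, 2.59 and 3.67 CPM in cre+, from 191 to 273 counts, and 13.5, 6.85, 5.41 and 4.45 CPM in cre-, from 358 to 1192 counts. All 3 cre+ libraries lay below all 4 cre- libraries, as they did for 9.72% of the 21542 tested genes, and cre- replicate 1 was far above the rest. Cre+ libraries averaged 2.82 ± 0.767 CPM (SD, n = 3) and cre- libraries 7.56 ± 4.09 CPM (SD, n = 4), a 2.68-fold lower level in cre+. The edgeR log2 fold change (cre+ minus cre-) was -1.42 ± 0.42 (SE), with a p of 0.00814 that did not pass adjustment (adjusted p = 0.129). edgeR called 0 of 21542 genes (0% called), and at an unadjusted p under 0.05 it had 9.75% of them lower and 10.2% higher in cre+, 4305 genes in all; limma-voom also called 0. In DESeq2, the test the study used, the same difference passed (log2 fold change -1.42, adjusted p = 0.0122), as did 5.48% of 16345 genes in this direction. An exact two-sided permutation test of mean log2 CPM over the 35 splits gave p = 0.0571, where the smallest possible value is 0.0286.

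The size of the Bdnf difference depended on single mice. Without cre- replicate 1 the edgeR log2 fold change was -0.98, and DESeq2 still called it (adjusted p = 0.033). The DESeq2 call was lost without cre+ replicate 1 (adjusted p = 0.0844) and without cre+ replicate 2 (adjusted p = 0.0743). Without both replicates 1 it was -0.83 in edgeR (adjusted p = 0.240) and -0.82 in DESeq2 (adjusted p = 0.140), a fit that called 3.41% of genes lower and 3.74% higher. The study named Bdnf among its lower genes in these same samples, so its direction here is not independent evidence.

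**Figure D1:**
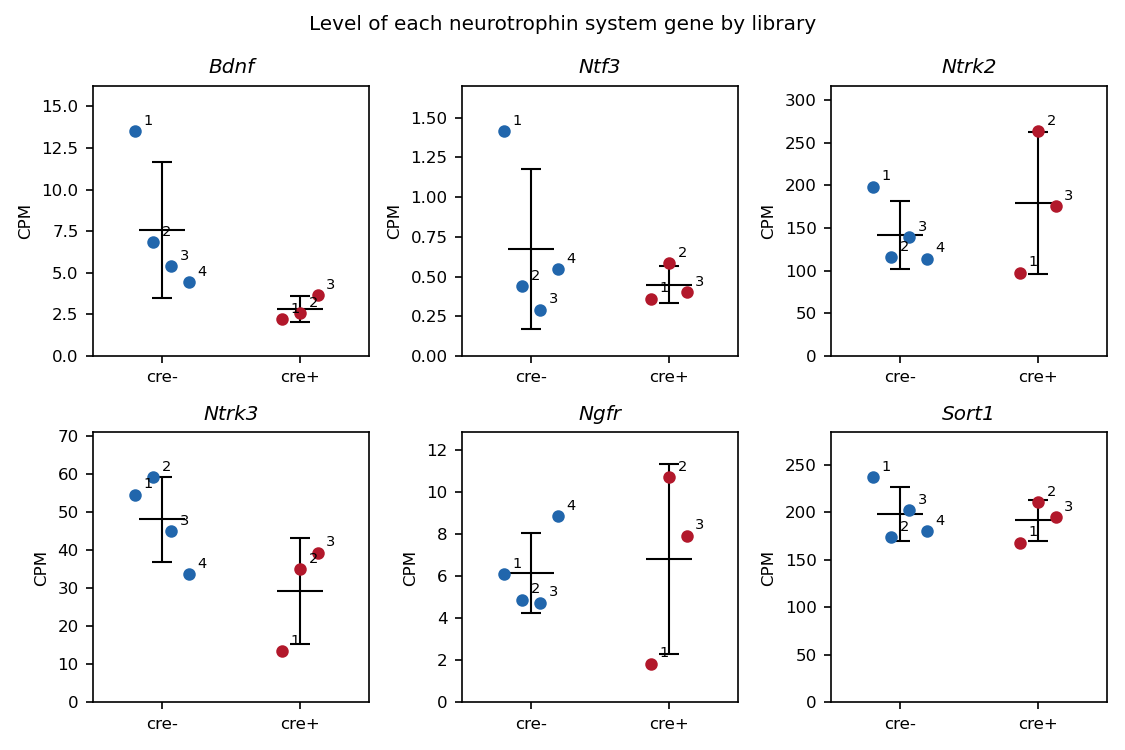
Level of each gene (CPM, axis from 0) in cre- (blue, n = 4) and cre+ (red, n = 3) libraries, numbered by replicate, with the mean (long bar) and SD (whiskers). Bdnf is the 1 gene of 6 whose genotypes do not overlap, and its highest library is cre- replicate 1 at 13.5 CPM. Of all 21542 tested genes, 9.72% were lower and 8.94% higher in cre+ without overlap, a like share.

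Bdnf is transcribed from several promoters, each joined to a shared coding exon, and the activity-responsive ones are bound by CREB. The gene has 18 annotated transcripts, all protein-coding, with 16 distinct transcript start positions, and the counts do not show which of them carried the lower level. The RefSeq table (GRCm39) held 7 Bdnf windows, and 250 bases before each start were searched on both strands for TGACG, the core of the cAMP response element, and for CACGTG, an E-box bound by USF proteins and BHLHE40. TGACG stood in 1 of these 7 windows and in 17.8% of the windows of all genes (32851). The match is shown because Bdnf was the member whose genotypes did not overlap. The window of the first promoter, which held neither exact run of letters, is printed beside it. Variants of the motifs were not searched for, so the lack of an exact match does not show that a response element is absent. Capitals mark the match, which reads CGTCA on the printed plus strand and lies 35 bases before the start of transcript Bdnf-209.
Bdnf-209, chr2:109522531-109522780 (+): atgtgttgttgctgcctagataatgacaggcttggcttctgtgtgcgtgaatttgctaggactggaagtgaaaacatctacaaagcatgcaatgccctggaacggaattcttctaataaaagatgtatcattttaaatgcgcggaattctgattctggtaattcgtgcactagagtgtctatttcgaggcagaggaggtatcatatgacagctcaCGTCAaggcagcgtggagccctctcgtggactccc
Bdnf-201, chr2:109504795-109505044 (+): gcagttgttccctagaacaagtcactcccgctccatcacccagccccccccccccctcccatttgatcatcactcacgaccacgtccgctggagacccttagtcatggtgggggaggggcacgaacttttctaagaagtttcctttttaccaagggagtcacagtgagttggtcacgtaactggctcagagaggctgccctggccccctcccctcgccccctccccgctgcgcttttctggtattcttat
CACGTG was in none of the Bdnf windows. Across the 11 windows of the 4 genes found in the table (Bdnf, Ntf3, Ngfr and Ntrk2), the other match was CACGTG in an Ntf3 window, a motif in 6.02% of all windows. A match is a run of letters and no evidence of binding in these cells.

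Ntf3 (ENSMUSG00000049107, chr6, 126078375 to 126143873, minus strand), which encodes the TrkC ligand, had the fewest counts of the 6, with 21 to 125 counts per library. Its level was 0.362, 0.583 and 0.404 CPM in cre+ and 1.42, 0.440, 0.292 and 0.547 CPM in cre-. The groups overlapped, and cre- replicate 1 again stood highest. The log2 fold change was -0.59 ± 0.67 (edgeR, adjusted p = 0.685), and it was 0.08 without that library. DESeq2 gave no adjusted p for it.

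Ntrk2 (ENSMUSG00000055254, chr13, 58954383 to 59281784, plus strand) encodes TrkB, the BDNF receptor. It stood at 97.7, 263.5 and 175.4 CPM in cre+ and at 198.2, 115.3, 139.4 and 114.0 CPM in cre-. The cre+ libraries held both the lowest and the highest value of all 7. Cre+ averaged 178.9 ± 83.0 CPM (SD, n = 3) against a cre- average of 141.7 ± 39.4 CPM (SD, n = 4). The log2 fold change of 0.34 ± 0.32 did not pass (edgeR, adjusted p = 0.613; DESeq2, adjusted p = 0.506). It rested on single libraries, being -0.053 without cre+ replicate 2 and 0.63 without cre+ replicate 1. Without both replicates 1, Ntrk2 was higher in cre+ in DESeq2 (0.85, adjusted p = 0.00193) but not in edgeR (0.84, adjusted p = 0.156). The gene has 30 annotated coding transcripts, and gene counts cannot separate kinase-bearing from truncated TrkB.

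Ntrk3 (ENSMUSG00000059146, chr7, 77825707 to 78387760, minus strand) encodes TrkC, the NT-3 receptor. Its level was 13.4, 34.9 and 39.3 CPM in cre+ and 54.5, 59.0, 44.9 and 33.8 CPM in cre-. Cre- replicate 4 lay below both cre+ replicates 2 and 3, so the genotypes overlapped. The cre+ average was 29.2 ± 13.9 CPM (SD, n = 3) and that of cre- 48.1 ± 11.2 CPM (SD, n = 4). The difference, a log2 fold change of -0.72 ± 0.35, did not pass in edgeR (adjusted p = 0.297), in DESeq2 (adjusted p = 0.152) or in the exact permutation test (p = 0.114). Without cre+ replicate 1 it was -0.38 (edgeR, adjusted p = 0.432), and without both replicates 1 it was -0.31 (adjusted p = 0.502).

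Ngfr (ENSMUSG00000000120, chr11, 95459644 to 95478561, minus strand), the gene of p75, stood at 1.84, 10.7 and 7.94 CPM in cre+ and at 6.10, 4.90, 4.75 and 8.86 CPM in cre-. Cre+ replicate 1 was lowest and cre+ replicate 2 highest of all libraries. The log2 fold change was 0.15 ± 0.51 (edgeR, adjusted p = 0.907), while the difference of mean log2 CPM had the other sign (-0.14, exact permutation p = 0.914).

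Sort1 (ENSMUSG00000068747, chr3, 108191398 to 108268827, plus strand), the gene of sortilin, was the steadiest of the 6. Its level was 168.2, 211.0 and 195.1 CPM in cre+ and 236.6, 174.0, 202.6 and 180.4 CPM in cre-. The highest library was 1.41 times the lowest, against 6.16 times for Bdnf. The log2 fold change was -0.05 ± 0.14 (edgeR, adjusted p = 0.875), and between -0.13 and 0.05 with any single library left out.

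**Figure D2:**
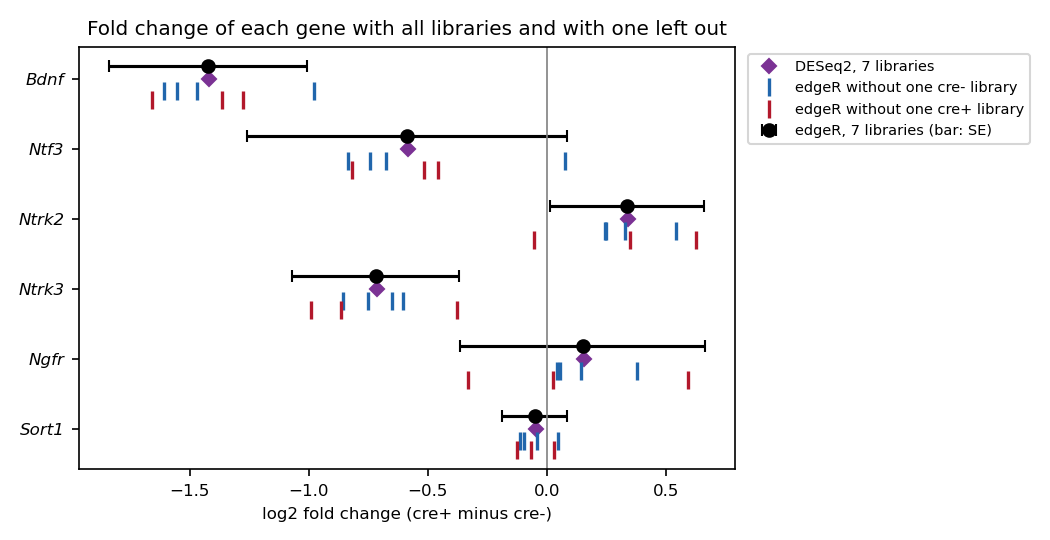
Log2 fold change (cre+ minus cre-) of each gene from edgeR with its SE (black), from DESeq2 (purple diamond) and from edgeR with each cre- (blue) or cre+ (red) library left out. Every Bdnf and Ntrk3 tick lies left of 0, and the ticks of the other 4 genes lie on both sides.

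Bdnf and Ntrk3 were low where neuronal markers were low. The pan-neuronal list had negative fold changes for 16 of 16 genes (6 called lower by DESeq2, 0 by edgeR), and the excitatory list for 10 of 10 (5 called lower), where DESeq2 called 5.48% of all genes lower. It called 1 and 3 of them lower without both replicates 1 (3.41% of all genes). Among the 3 most abundant pan-neuronal markers, Snap25 was lower in DESeq2 (log2 fold change -1.02, adjusted p = 0.042), and Tubb3 (-0.44, adjusted p = 0.0916) and Map2 (-0.39, adjusted p = 0.104) did not pass. Set against the pan-neuronal mean within each library, Bdnf stood at -4.84, -5.51 and -5.18 log2 units in cre+ and at -4.12, -4.55, -5.02 and -4.92 in cre-. On this scale the genotypes overlapped and the difference of means was -0.53. Against the excitatory markers, the difference for Bdnf was -0.13, also with overlap. With the pan-neuronal level as a covariate, the edgeR log2 fold change of Bdnf was -0.52 (adjusted p = 0.687). With the astrocyte covariate it was -1.72 (adjusted p = 0.309), and with the endothelial and mural covariate -2.19 (adjusted p = 0.792). Why the covariates moved it in opposite directions was not tested.

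The distance of Ntrk3 to the pan-neuronal markers was -2.24, -1.77 and -1.77 log2 units in cre+ and -2.11, -1.45, -1.97 and -2.002 in cre-, with overlap. Its averages were -1.93 ± 0.27 for cre+ (SD, n = 3) and -1.88 ± 0.29 for cre- (SD, n = 4). With the pan-neuronal covariate its log2 fold change was 0.10 (edgeR, adjusted p = 0.922). It was -1.54 with the astrocyte covariate (edgeR, adjusted p = 0.259). With the endothelial and mural covariate it was -0.50 (edgeR, adjusted p = 0.896). Ntrk2 behaved otherwise. Its distance to the pan-neuronal markers was 0.62, 1.14 and 0.39 in cre+ and -0.25, -0.48, -0.33 and -0.25 in cre-, without overlap. Its edgeR log2 fold change was 1.15 with the pan-neuronal covariate (adjusted p = 0.2075) and -0.47 with the astrocyte covariate (adjusted p = 0.745). With the endothelial and mural covariate it was 1.04 (edgeR, adjusted p = 0.792). Against the astrocyte markers, Ntrk2 averaged 1.85 ± 0.42 for cre+ (SD, n = 3) and 2.40 ± 0.45 for cre- (SD, n = 4), with overlap. Sort1, too, was higher against the pan-neuronal markers in every cre+ library (0.54 to 1.41) than in any cre- library (0.01 to 0.41). The pan-neuronal mean was itself lower in cre+ without overlap. A gene with equal CPM in both genotypes thus also comes out higher in cre+ on this scale. The share of all genes without overlap on it was not counted. Astrocyte markers had positive fold changes for 14 of 14 genes (5 called higher by DESeq2) and endothelial markers for 15 of 15 (11 called higher). DESeq2 called 6.7% of all genes higher. The calls of these lists were 5 and 3 without both replicates 1 (3.74% of all genes). The part of these cell types in the ligand and receptor levels was not tested.

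**Figure D3:**
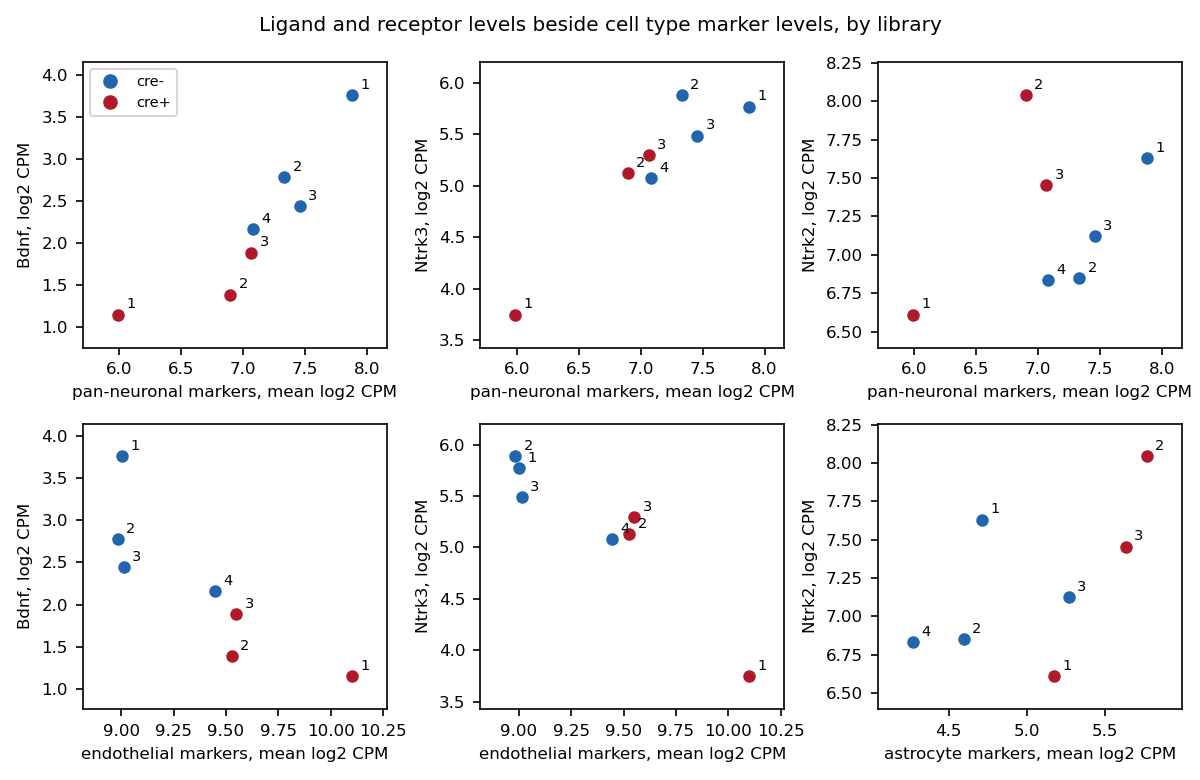
Log2 CPM of Bdnf, Ntrk3 and Ntrk2 (vertical) against the mean log2 CPM of a marker list (horizontal) in the 7 libraries, cre- in blue and cre+ in red, numbered by replicate. Bdnf and Ntrk3 are lowest in cre+ replicate 1, which has the lowest pan-neuronal (5.99) and highest endothelial (10.1) marker level. Ntrk2 is highest in cre+ replicate 2, which has the highest astrocyte marker level (5.77). The order is not kept elsewhere: Ntrk2 is next highest in cre- replicate 1 (astrocyte level 4.71) and lowest in cre+ replicate 1 (5.175).

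Among the other marker lists, the inhibitory neuron list had 2 of 12 genes called lower by DESeq2 (5.48% of all genes). Called higher were 8 of 13 mural, 5 of 11 meningeal fibroblast, 3 of 10 oligodendrocyte, 1 of 10 oligodendrocyte precursor, 0 of 12 microglial and 1 of 11 ependymal and choroid plexus genes (6.7% of all genes). With both replicates 1 left out, it was 7 of 10 for oligodendrocytes and 5 of 10 for their precursors (3.74% of all genes).

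Per length, Sort1 and Ntrk2 were the most and Ntf3 the least abundant of the 6. Over all 7 libraries and per kb of merged exons, Sort1 stood at 23.8 ± 2.91 CPM per kb, Ntrk2 at 5.27 ± 1.97, Ngfr at 1.87 ± 0.86, Ntrk3 at 1.28 ± 0.482, Bdnf at 0.728 ± 0.510 and Ntf3 at 0.333 ± 0.221 (all SD, n = 7). Sort1 was above Ntrk2, and Ntrk2 above Ngfr, in all 7 libraries with no overlap of their ranges. Ngfr and Ntrk3 overlapped and were not separated, with Ngfr above in 5 of 7 libraries, as did Ntrk3 and Bdnf (6 of 7). Bdnf was above Ntf3 in 7 of 7 libraries although their ranges overlapped. Per kb of the longest coding transcript, Ntrk2 rose to 17.4 ± 6.51 CPM per kb and its range then overlapped that of Sort1 (27.8 ± 3.40), and Ntrk3 (2.02) came before Ngfr (1.87). The order in the middle thus rests on which length is used.

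**Figure D4:**
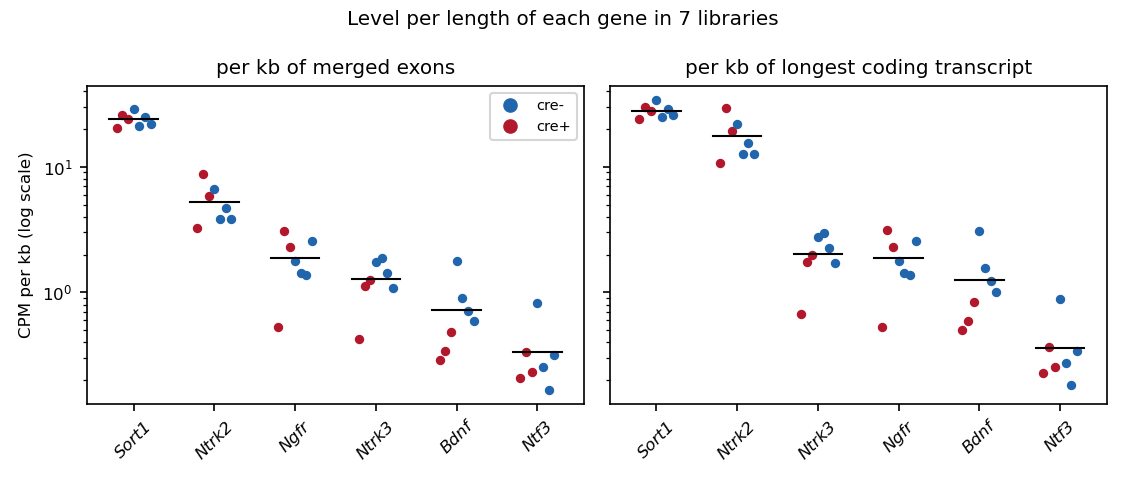
CPM per kb (log scale) of each gene in 7 libraries, cre- in blue and cre+ in red, with the mean over libraries (bar), for merged exons (left) and the longest coding transcript (right). Sort1 and Ntrk2 lead in both, and Bdnf and Ntf3 come last.

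Ratios between members were also taken within each library. The ratio of Ntrk2 to Ntrk3 CPM was 7.27, 7.55 and 4.46 in cre+ and 3.63, 1.95, 3.10 and 3.38 in cre-. All cre+ libraries were above all cre- libraries, although neither gene passed alone. For single genes, such a gap upward was seen in 8.94% of those tested, and the share for ratios was not counted. The ratio of Ntrk2 to Bdnf was 44.5 to 101.7 in cre+ and 14.7 to 25.8 in cre-, also without overlap. The ratio of Ntrk3 to Ntf3, the TrkC pair, overlapped (37.1 to 97.4 and 38.5 to 153.8). That of Ntrk2 to Ngfr overlapped too (22.1 to 53.0 and 12.9 to 32.5). That of Sort1 to Bdnf did not (53.1 to 81.45 and 17.5 to 40.5). These ratios hold the same levels as above and are given without a test.

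Other genes of the pathway were read from lists by role. None passed in edgeR, and the calls below are those of DESeq2 (5.48% of all genes lower, 6.7% higher). Pan-neuronal markers had negative and endothelial and astrocyte markers positive fold changes, as given above, and their part in these calls was not tested. Of the 7 other ligands and receptors, 0 were called. The 4 with the smallest p were Sorcs3 (log2 fold change -0.72 ± 0.36), Ntf5 (0.46 ± 0.37), Sorcs2 (-0.40 ± 0.36) and Sorl1 (-0.36 ± 0.35), sortilin relatives apart from Ntf5, which encodes NT-4. Their list median was -0.36 (all tested genes, -0.04).

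Of the 15 genes that cut and sort precursors, 13 could be tested and 2 were called, both higher. Furin, a convertase that cleaves proneurotrophins in the Golgi, had a log2 fold change of 0.53 ± 0.11 (DESeq2, adjusted p = 0.00447; edgeR, 0.0939). Plat, the tissue plasminogen activator whose product plasmin cleaves pro-BDNF outside the cell, stood at 0.86 ± 0.22 (DESeq2, adjusted p = 0.00963). Its genotypes overlapped, with cre+ replicate 3 (126.1 CPM) below cre- replicate 4 (134.3 CPM). The neuroendocrine convertases Pcsk1 (-0.61 ± 0.21, adjusted p = 0.058) and Pcsk2 (-0.80 ± 0.36, adjusted p = 0.111) had values on the other side and did not pass. The list median was 0.00. Furin was still called without both replicates 1, and Plat was not. Both stood highest within each genotype in cre+ replicate 1 and cre- replicate 4, as the endothelial markers did.

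Of 30 Trk adaptors and proximal signaling genes, 2 were lower and 4 higher. Shc2, a neuronal adaptor of the Trk receptors, was lower (-0.996 ± 0.20, DESeq2 adjusted p = 0.000815), as was the ubiquitin ligase Nedd4l (-0.35 ± 0.09, adjusted p = 0.019). The widely expressed relative Shc1 was higher (0.47 ± 0.11, adjusted p = 0.00518), with the docking and exchange proteins Gab1 (0.44 ± 0.10) and Sos2 (0.40 ± 0.10) and the adaptor Crk (0.35 ± 0.09). The other 24 were not called, among them Frs2 (0.06 ± 0.12), Plcg1 (0.10 ± 0.14) and Kidins220 (-0.19 ± 0.12), which were chosen for their role in Trk signaling after values were seen. The list median was 0.08. Without both replicates 1, Shc2 remained called lower and Shc1 and Crk higher, and the other 3 were lost.

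Of 21 p75 partners and effectors, 0 were lower and 3 higher. These were Tnfrsf19 (TROY, a p75 relative, 0.57 ± 0.14), Rhoa (the GTPase downstream of p75 and Nogo receptor, 0.51 ± 0.12) and Adam17 (the protease that sheds the p75 ectodomain, 0.43 ± 0.11). Zfp369 stood at -0.42 ± 0.13 without passing (DESeq2, adjusted p = 0.0612). The list median was -0.20. Rhoa remained called without both replicates 1, and the other 2 did not. All 3 stood highest within each genotype in cre+ replicate 1 and cre- replicate 4. The mean log2 CPM of the endothelial markers was also highest there (10.1 and 9.446). The part of endothelial cells in these calls was not tested.

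Among 20 regulators of Bdnf transcription, 1 was lower and 1 higher. Npas4, a transcription factor induced by neuronal activity, was lower (-1.05 ± 0.35, DESeq2 adjusted p = 0.0299). Its genotypes overlapped, with cre- replicate 1 (15.31 CPM) below cre+ replicate 3 (16.45 CPM). Bhlhe40, an E-box repressor, was higher (0.91 ± 0.22, adjusted p = 0.0052). The CREB coactivator Crtc1 (-0.30 ± 0.10, adjusted p = 0.0658) and Nfkb1 (0.41 ± 0.15, adjusted p = 0.0957) did not pass. The list median was 0.06. Both calls were also made without both replicates 1.

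BDNF-responsive transcripts were a list of 22 that holds Bdnf itself, with 3 lower and 1 higher. Nptx2, a pentraxin that clusters AMPA receptors, was lower (-1.45 ± 0.39, DESeq2 adjusted p = 0.00496), as were Bdnf and Vgf, a secreted neuropeptide precursor (-1.40 ± 0.47, adjusted p = 0.0165). The genotypes overlapped for Nptx2 and did not for Bdnf and Vgf. Dusp6, a phosphatase of ERK, was higher (0.50 ± 0.14, adjusted p = 0.0275). Nptx1 stood at -1.61 ± 0.53 and did not pass (adjusted p = 0.0667). The list median was -0.51, and 15 of 22 fold changes were negative. The 7 positive ones included the activity-induced genes Fos (0.76 ± 0.54), Nr4a1 (0.79 ± 0.42), Junb (0.51 ± 0.43) and Egr1 (0.14 ± 0.45). None of these was called, and they were named after their values were seen. None of the 4 called genes was called without both replicates 1, and DESeq2 then called Arc, an activity-induced gene of the postsynapse, and Nptx1 lower (Arc was named after its values were seen). Pan-neuronal markers, whose list median was -0.82, moved with these neuronal transcripts, and their part was not tested.

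**Figure D5:**
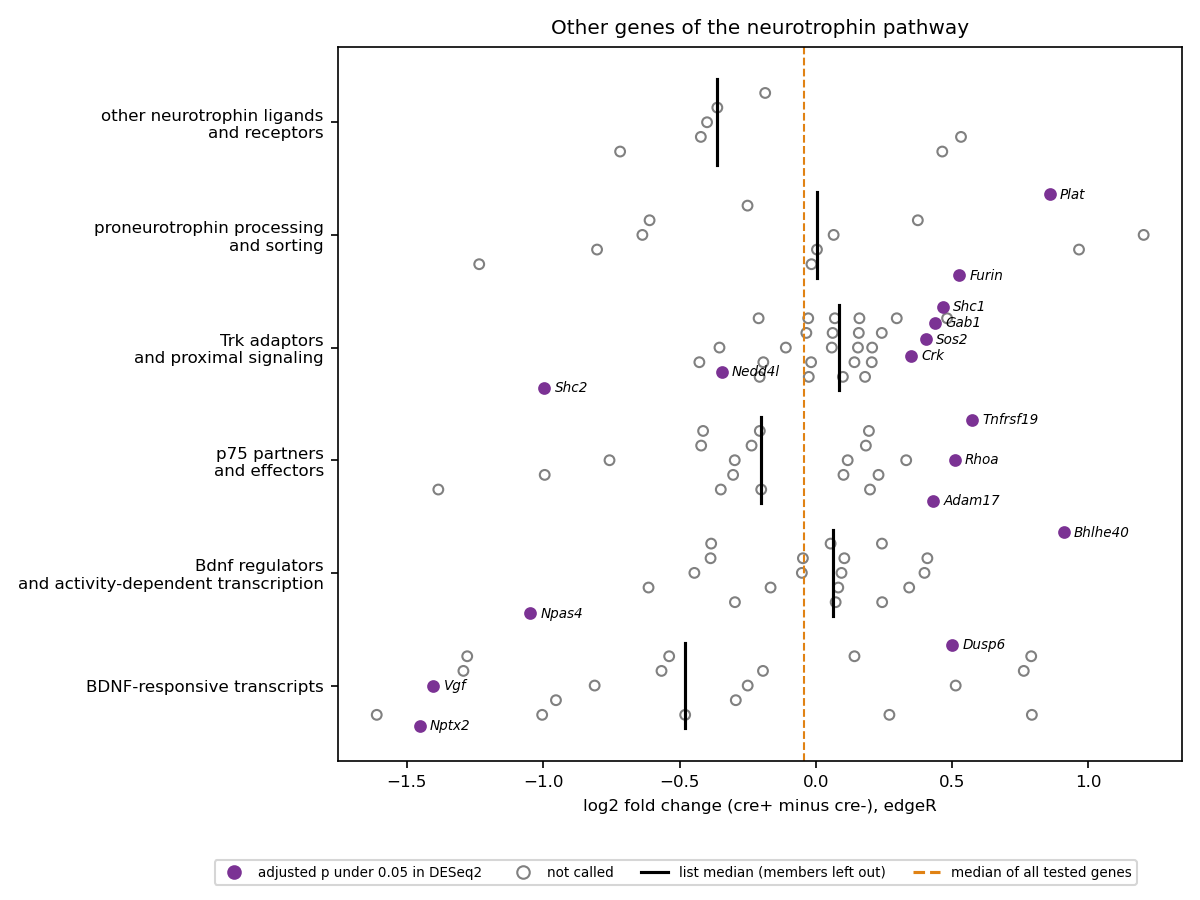
Log2 fold change (edgeR, cre+ minus cre-) of the other pathway genes by list, with DESeq2 calls in purple and named, list medians without the 6 members as black bars and the median of all tested genes (-0.04) as a dashed line; vertical scatter has no meaning. Named calls lie on both sides in 3 of the 6 lists, and Nptx2 and Vgf are the lowest of them.

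The genes whose log2 CPM followed each member most closely over the 7 libraries were sought among 11045 genes by Pearson r, as a description without a test. For Bdnf they were Rab11fip4 (r = 0.993), Nicn1 (0.989) and Agtpbp1 (0.982). For Ntrk3 they were Pclo (0.996), a presynaptic scaffold, Fgf14 (0.993), a sodium channel partner, and Kcna2 (0.991), a potassium channel. For Ntrk2 they were Cdc42bpa (0.990), Hspa13 (0.977) and Tmem9 (0.973), and for Sort1 Selenoh (0.979), Ppp2r2c (0.979) and Hsp90aa1 (0.976). The closest for Ntf3 were Enc1 (0.968), Enoph1 (0.964) and Ube2v2 (0.943), and for Ngfr Rnaseh2b (0.953), Tmem29 (0.945) and Pmf1 (0.943). All points share library, genotype and cell makeup, and with 7 points and this many genes searched high values of r arise readily.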

How the data were processed

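Poly(A) libraries were made from neurons of 7 mice and sequenced as paired reads. According to the submitters' processing notes and the paper's methods, the authors' reads were trimmed with fastp, checked with FastQC, aligned with STAR to GRCm39, filtered with SAMtools, counted with StringTie and tested with DESeq2. The sources used here give no versions, annotation release or strand setting, so reads of overlapping antisense genes cannot be told apart. The values deposited by the authors were whole-number counts per gene (46382 rows, of which 49 repeats were dropped) and a normalized signal, which is the deposited count divided by 1 factor per library (0.916 to 1.108). Tests used the counts. Letter codes in the column headers differ between genotypes, and a batch they might mark cannot be told apart from genotype.

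In R 4.3.3, edgeR 4.0.16 was fitted to the counts by quasi-likelihood (F-test, genotype alone, TMM factors, filterByExpr, robust), with Benjamini-Hochberg adjustment over 21542 genes at 0.05. DESeq2 1.42.0 (29539 genes, 16345 with an adjusted p) and limma 3.58.1 (voom) were alternatives, with other scalings, filters, marker covariates, a replicate block and libraries left out. Log2 CPM used a prior count of 2. Exact tests compared absolute differences. Marker levels are list means of log2 CPM. Lengths came from GENCODE M39, which held all 6 identifiers.

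Named were the members, up to 4 genes of each pathway list with the smallest edgeR p, all DESeq2 calls of those lists, up to 3 most abundant markers of a list, the 3 genes most like each member (those averaging 10 CPM or more and not predicted) and Il4ra. Members and lists were chosen with earlier results of these data known. Counting error is not the limit for most members at these depths; p-values measure the spread between mice.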

Additional observations from a re-analysis of the deposited data

Results flagged for a closer look

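Among 33 genes examined in the 4 cre- libraries, 2 had a single library far from the others (gap over range above 0.829), a flag that chance gives in about 1 of 20 groups. Sorl1, a sortilin relative, stood at 111.8 CPM in cre- replicate 1 (gap over range 0.890). Plat stood at 134.3 CPM in cre- replicate 4 (0.835), the cre- library nearest to the cre+ ones for this gene. Bdnf (0.736) and Ntf3 (0.773), both highest in cre- replicate 1, were under that limit.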

How the results depend on the processing

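Bdnf was lower in cre+ under all 27 alternatives tried (log2 fold change -2.19 to -0.52), and edgeR passed it under none of its settings. Genes called were 0 in edgeR, 1990 in DESeq2, and 0 to 2258 with a library left out (5 in edgeR without cre+ replicate 1). After the data were seen, both replicates 1 were left out: edgeR then called 3 genes and DESeq2 1555. DESeq2 called Bdnf (-1.42) and kept the call in 5 of 7 fits with a library left out. Ranges with a library left out, or both replicates 1, were -1.66 to -0.82 for Bdnf, -0.84 to 0.22 for Ntf3 (from -0.83 in edgeR), -0.053 to 0.84 for Ntrk2 in edgeR, -0.99 to -0.30 for Ntrk3, -0.33 to 0.61 for Ngfr and -0.13 to 0.14 for Sort1. Signs turned as follows. Without both replicates 1, Ntf3 was 0.21 (edgeR) and 0.22 (DESeq2) and Sort1 0.13 and 0.14, while Ntrk2 passed in DESeq2 (0.85) but not in edgeR (0.84). With the pan-neuronal covariate, Ntf3 was 0.30, Ntrk3 0.10 and Sort1 0.23. With the astrocyte covariate, Ntrk2 was -0.47 and Ngfr -0.14. With the endothelial and mural covariate Sort1 was 0.11, and in limma-voom Ngfr was -0.22. The cause of these changes was not tested. Scaling by library totals moved the median log2 fold change of all genes from -0.04 to -0.16 and the genes at an unadjusted p under 0.05 from 2205 higher and 2100 lower to 1184 and 3399, with Bdnf at -1.52 and no member changing sign.

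Replicate numbers are shared between genotypes. Deviations from the genotype mean had an r over 15985 genes of -0.0884, 0.0052 and 0.193 for same-numbered libraries. For differently numbered libraries r ran from -0.28 to 0.335. With so few libraries these values cannot decide whether a number marks a shared litter or preparation. With a replicate block edgeR called 0 genes, and Bdnf stood at -1.52 (adjusted p = 0.239), Ntf3 at -0.34, Ntrk2 at 0.18, Ntrk3 at -0.98, Ngfr at 0.11 and Sort1 at -0.09. Depth limits Ntf3 most, with 21 to 125 counts per library.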
